A study of Mus musculus with 12 samples.

Results

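The proteasome subunits examined here were the 36 genes of the deposited count table whose symbols are Psma, Psmb, Psmc or Psmd followed by digits, without the immunoproteasome genes Psmb8, Psmb9 and Psmb10. They were taken from 23366 gene symbols, and for genes with several transcripts the one with most counts was used. Of the 36 genes, 34 had enough counts to be tested, among 13882 genes tested in all. Of the 36 genes, 16 encode core particle subunits, 17 encode regulatory particle subunits and 3 (Psmd5, Psmd9 and Psmd10) encode chaperones that help to assemble the base of the regulatory particle. RNA was sequenced from mouse embryonic fibroblasts, connective tissue cells grown from embryos, of strain C57BL/6 at passages 3 to 5. There were 2 libraries in each of 4 groups: Carm1 knockout cells after 18 h of glucose starvation, Carm1 knockout cells in rich medium, wild-type cells after 18 h of glucose starvation and wild-type cells in rich medium. Carm1 encodes an arginine methyltransferase that acts as a transcriptional coactivator, and the study compared the starvation response with and without it. Starved cells were washed and kept in glucose-free medium with 10% dialyzed serum, and the other cells in medium with 10% undialyzed serum, so the groups differed in serum as well as in glucose. The labels give the rich-medium libraries as 0 h, so time after the change of medium cannot be told apart from starvation. They do not say how many embryos or lines the cells came from, how the knockout was made or whether the 2 libraries of a group were separate cultures, and p-values therefore measure only the spread between these libraries, which may be technical.

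The proteasome is the main protease of the cytosol and nucleus and degrades proteins that carry chains of ubiquitin. Its barrel-shaped core is built of outer rings of alpha subunits, which gate the entry, and inner rings of beta subunits, among which Psmb5, Psmb6 and Psmb7 hold the active sites. The regulatory particle caps the core. Its base contains a ring of ATPases (the Psmc genes) that unfold substrates and scaffold subunits that receive ubiquitin chains, and its lid contains Psmd14, the enzyme that removes ubiquitin as the substrate enters. In mammalian cells with impaired proteasomes, the transcription factor NFE2L1 raises the subunit genes together through antioxidant response elements in their promoters. In starved cells both the proteasome and autophagy release amino acids, and proteasomes can themselves be degraded by autophagy.

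Libraries held 8447014 to 28155431 counts over all genes, and levels are given as CPM, a gene's counts relative to the scaled total of its library, which compares libraries and not genes of different length. In each knockout library Carm1 was lower than in any wild-type library, at 53.9 and 58.6 CPM in starved knockout cells and 48.1 and 70.7 CPM in rich-medium knockout cells, against 176 and 164 CPM in starved and 207 and 204 CPM in rich-medium wild-type cells. The labels do not give the deleted exons, and counts over the whole transcript do not show which parts remained. The genotypes also differed in sex-linked and lineage markers. Xist had 0 to 6 counts in the knockout libraries, against 18657 to 23751 in the wild-type libraries. All 8 fibroblast markers had counts in every group (8 of 8 over 5 CPM in knockout and 6 of 8 in wild-type cells). Their sums were 13571 to 17338 CPM in the knockout and 7862 to 11030 CPM in the wild-type libraries. Fn1 made up most of the knockout sum, at 9076 to 10585 CPM, against 2593 to 3418 CPM in the wild type. Thy1 stood at 124 to 180.4 CPM in the knockout and at most at 0.214 CPM in the wild-type libraries. Col3a1, Pdgfra and Pdgfrb were also higher in each knockout library. Col1a1 went the other way, at 635 to 1206 CPM in the knockout and 1400 to 2807 CPM in the wild type, and Col1a2 and Vim overlapped. The 3 endothelial markers summed to 132 to 245 CPM in the knockout libraries, nearly all of it Cdh5, and to 2.09 to 4.81 CPM in the wild-type libraries. Pecam1 was also higher in the knockout. Kdr went the other way, at most at 0.086 CPM in the knockout and at 1.78 to 4.50 CPM in the wild-type libraries. The 4 leukocyte markers summed to 3.81 to 6.03 CPM in the knockout and 2.04 to 5.09 CPM in the wild-type libraries. The 3 epithelial markers summed to 0.246 to 0.762 CPM in the knockout and 1.16 to 3.6 CPM in the wild-type libraries. Differences between genotypes below therefore cannot be told apart from differences in sex or in the cells that made up the cultures.

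The 2 knockout rich-medium libraries stood apart from each other, and replicate 1 had the fewest counts of all libraries. A ratio between 2 libraries does not show which of them deviated. Between the 2 knockout rich-medium libraries, the log2 ratio (replicate 1 over replicate 2) ran from -1.56 for Psmb5 to 0.87 for Psmc6 over the 34 subunit genes tested, with a standard deviation of 0.622. In the other 3 groups that standard deviation was 0.0729 to 0.0791. Over all genes it was 0.908 in the knockout rich-medium pair and 0.337 to 0.360 in the other groups, so the spread was not confined to subunit genes. No subunit gene differed by more than 2-fold between replicates in those groups, whereas Psmb4, Psmb5, Psmb6 and Psmd9 did in the knockout rich-medium pair. The comparisons of subunit genes are given with both libraries of this pair and with each left out. For some gene lists, medians are given with each left out. Since 1 estimate of the spread serves all 4 groups, the pair also widens the errors of the comparison between the wild-type groups.

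**Figure D1:**
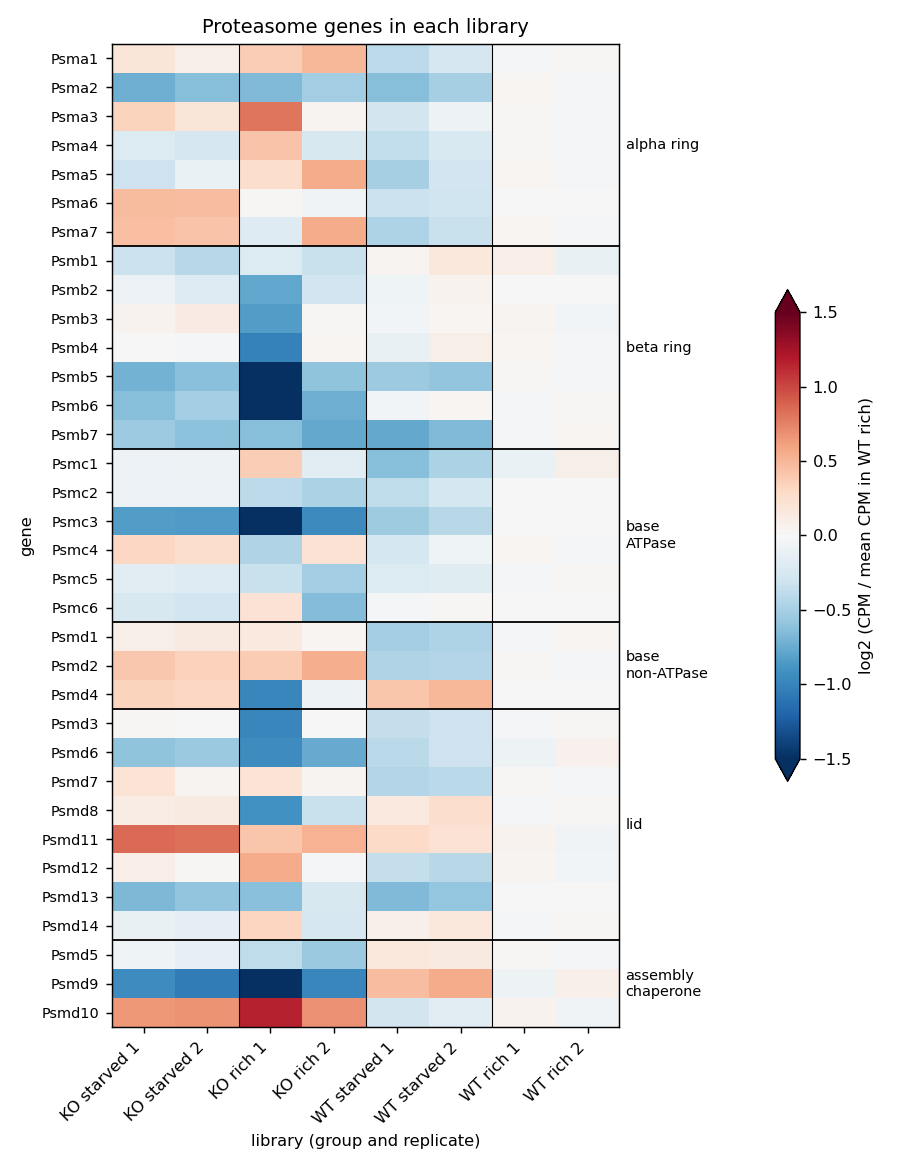
Level of each of the 34 tested proteasome genes (rows, grouped by subcomplex) in each of the 8 libraries (columns), as log2 of CPM over the mean CPM of the wild-type rich-medium group, with colours clipped at -1.5 and 1.5. Replicates look alike except in the knockout rich-medium group, where Psmb4, Psmb5, Psmb6 and Psmd9 were more than 2-fold lower in replicate 1.

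Of the 36 genes, 34 passed the filter on low counts. The other 2 are known for expression in single tissues: Psma8, an alpha subunit of the testis, had 0 counts in all 8 libraries, where 3 counts would correspond to 0.107 to 0.355 CPM, and Psmb11, a beta subunit of the thymus, had 3 and 4 counts in 1 library each of the rich-medium and the starved wild-type groups and 0 elsewhere. The 34 genes together took 0.495% and 0.497% of counts in starved knockout cells and 0.457% and 0.497% in rich-medium knockout cells. In wild-type cells they took 0.462% and 0.485% after starvation, against 0.563% and 0.557% in rich medium. The wild-type rich-medium libraries thus gave the highest share of their counts to the proteasome, above each of the other 6 libraries.

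RefSeq promoters of build GRCm38.p6, which hold 250 bases before and 50 after a gene's start, matched 29 of the 36 genes with 31 promoters. Those of Psmb5 and Psmb6 are shown because these genes encode active-site subunits and hold the core of an antioxidant response element, TGACNNNGC (capitals). Psmb5 lies at chr14:54617946-54618245, minus strand, and Psmb6 at chr11:70525107-70525406, plus strand.
Psmb5: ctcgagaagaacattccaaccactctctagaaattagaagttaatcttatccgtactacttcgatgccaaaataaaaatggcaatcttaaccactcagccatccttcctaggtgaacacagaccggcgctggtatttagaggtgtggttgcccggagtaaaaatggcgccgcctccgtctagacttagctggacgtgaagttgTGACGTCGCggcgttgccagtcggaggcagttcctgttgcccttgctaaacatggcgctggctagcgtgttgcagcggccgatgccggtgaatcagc
Psmb6: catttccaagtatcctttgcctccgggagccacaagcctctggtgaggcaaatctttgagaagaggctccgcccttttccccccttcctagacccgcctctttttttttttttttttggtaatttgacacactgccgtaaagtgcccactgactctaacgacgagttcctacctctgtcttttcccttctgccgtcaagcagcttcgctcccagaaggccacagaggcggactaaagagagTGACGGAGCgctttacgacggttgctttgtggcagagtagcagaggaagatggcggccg
The match begins 47 bases before the start in Psmb5 and 9 bases before it in Psmb6. TGACNNNGC was found on either strand in 5 of the 31 promoters (Psmb5, Psmb6, Psmc6, Psmd9 and Psmd12), 16.1%, and in 12.4% of all 32851 promoters. The promoters of Psma2 and Psmd13 are shown because both genes fell in starved wild-type cells. Psma2, at chr13:14612992-14613291, plus strand, holds an NF-Y box, CCAAT (capitals), and Psmd13, at chr7:140882144-140882443, plus strand, was the only matched gene with a C/EBP-ATF element, TGATGNAA (capitals, here on the opposite strand).
Psma2: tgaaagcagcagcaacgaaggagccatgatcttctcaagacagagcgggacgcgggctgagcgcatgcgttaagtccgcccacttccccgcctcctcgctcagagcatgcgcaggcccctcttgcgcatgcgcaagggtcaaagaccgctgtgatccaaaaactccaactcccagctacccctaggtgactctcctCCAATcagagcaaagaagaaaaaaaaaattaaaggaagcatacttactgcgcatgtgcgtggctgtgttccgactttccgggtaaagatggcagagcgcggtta
Psmd13: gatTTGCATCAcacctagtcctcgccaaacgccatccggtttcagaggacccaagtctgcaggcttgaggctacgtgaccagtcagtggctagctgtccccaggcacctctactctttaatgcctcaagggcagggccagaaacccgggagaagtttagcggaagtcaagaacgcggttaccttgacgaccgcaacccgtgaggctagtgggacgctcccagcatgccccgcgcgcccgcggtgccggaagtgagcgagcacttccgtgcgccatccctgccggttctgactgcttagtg
CCAAT was found in 12 of the 31 promoters, 38.7%, against 37.4% of all, and TGATGNAA in 1 of them, 3.23%, against 3.97% of all, again counting both strands. A match is a description of letters, not a bound site.

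In wild-type cells, 26 of the 34 subunit genes gave values below 0 with glucose starvation, and 6 of these passed the test. Fold changes are on the log2 scale, starved over rich medium, with the standard error after ± (2 libraries per group). Of 34 genes tested, 6 fell and 0 rose (edgeR quasi-likelihood test, Benjamini-Hochberg adjusted p under 0.05), while 32.8% of all 13882 genes tested changed, 14.8% higher and 18% lower. The share of subunit genes that fell, 17.6%, was close to that of all genes. At an unadjusted p under 0.05 there were 13 genes, against 44.1% of all genes. DESeq2 called 13, against 37.4% of all genes, and limma-voom 23, against 67.7%. The median log2 fold change was -0.30, against 0.00 over all genes tested, and the standard deviation over the subunit genes was 0.308, against 1.17 over all genes. Both starved libraries lay below both rich-medium libraries for 22 of the 34 genes, 64.7%, against 40.8% of all genes, and above them for 6 genes, 17.6%, against 41% of all genes.

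Among the core subunits, Psmb7, which holds the trypsin-like active site, had the lowest fold change. It stood at 94.6 and 102 CPM in starved cells, against 158 and 165 CPM in rich medium (-0.72 ± 0.12, adjusted p = 0.00485). Psma2, an alpha ring subunit, stood at 72.2 and 79.5 CPM in starved cells, against 115 and 110.4 CPM in rich medium (-0.57 ± 0.13, adjusted p = 0.0134). The groups did not overlap for either gene. The 7 alpha ring genes all had values below 0 (median -0.32), and of these Psma2 passed the test. In bulk RNA such a difference cannot be told apart from a shift in the cells that made up the culture. The beta ring was uneven: Psmb5, the chymotrypsin-like subunit, stood at 75.5 and 73.3 CPM in starved and 112 and 109 CPM in rich-medium cells (-0.57 ± 0.41, adjusted p = 0.325), a gap wider than its replicates in wild-type cells but not beyond the spread shared with the knockout pair. Psmb6, the caspase-like subunit, stood at 156 and 165 CPM in starved cells, against 159.9 and 163 CPM in rich medium (-0.01 ± 0.29, adjusted p = 1). Its groups overlapped, as did those of Psmb1, Psmb2, Psmb3 and Psmb4, whose log2 fold changes lay between -0.01 and 0.10.

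In the regulatory particle, both scaffold subunits of the base fell. Psmd1 stood at 229 and 238 CPM in starved cells, against 323 and 335 CPM in rich medium (-0.49 ± 0.11, adjusted p = 0.0162). Psmd2, which docks ubiquitin receptors, stood at 299.6 and 301 CPM in starved cells, against 413 and 405 CPM in rich medium (-0.45 ± 0.12, adjusted p = 0.026). In the lid, Psmd13, with the promoter printed above, stood at 60.8 and 64.6 CPM in starved cells, against 96.5 and 96.3 CPM in rich medium (-0.62 ± 0.15, adjusted p = 0.0209), and Psmd7, the inactive partner of the deubiquitinase, fell by a log2 value of -0.42 ± 0.13 (adjusted p = 0.0404). The 4 genes showed no overlap between the groups. None of the 6 ATPase genes passed the test (values -0.56 to 0.00). Other regulatory genes stood on the opposite side. Psmd4, a ubiquitin receptor, had 239 and 254 CPM in starved cells, against 178 and 181 CPM in rich medium (0.46 ± 0.26, adjusted p = 0.218). The deubiquitinase gene Psmd14 had 126 and 135 CPM in starved cells, against 119 and 121 CPM in rich medium (0.12 ± 0.19, adjusted p = 0.667). Psmd8 and Psmd11, of the lid, gave 0.21 ± 0.19 and 0.25 ± 0.12, and the chaperone gene Psmd9 0.51 ± 0.34, with starved above rich-medium libraries in all 3. Without replicate 1 or without replicate 2 of the knockout rich-medium group, 22 subunit genes fell in each fit, and 4 or 5 rose, where 66.8% and 67.2% of all genes tested were called (32.5% higher and 34.3% lower without replicate 1, and 33.7% higher and 33.5% lower without replicate 2). The 22 that fell with either left out were the same genes, all 7 alpha ring genes, Psmb5 and Psmb7 of the beta ring, 5 of the 6 ATPases (not Psmc6), and Psmd1, Psmd2, Psmd3, Psmd6, Psmd7, Psmd10, Psmd12 and Psmd13. Psmd4, Psmd8, Psmd9 and Psmd11 rose in both of those fits. The lone knockout library left in such a fit is taken to vary like the other groups. Leaving out any of the 6 other libraries ended most or all of the calls, while the median stayed between -0.33 and -0.24. The share of all genes called in those fits is not given here, so the loss may not be particular to subunit genes.

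**Figure D2:**
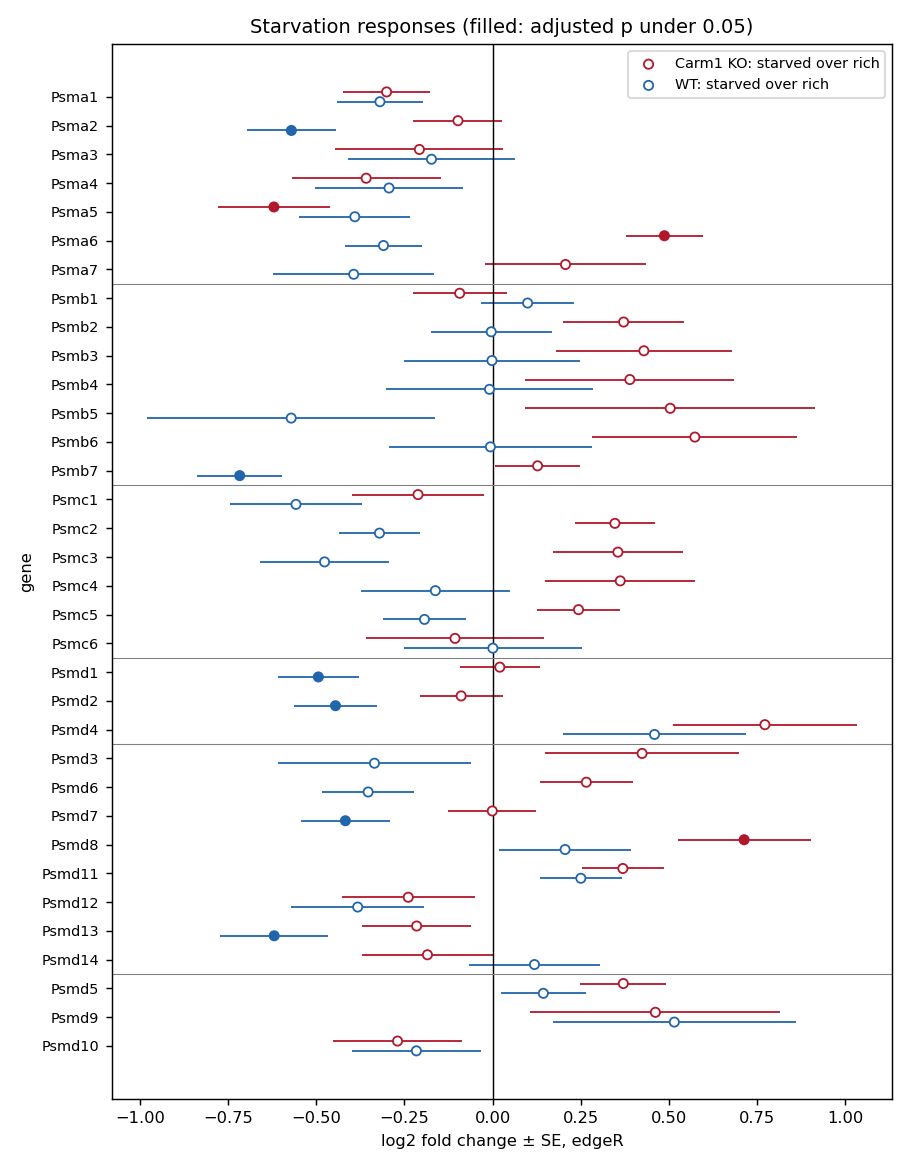
Log2 fold change of starved over rich-medium cells for each tested proteasome gene, with the standard error, in knockout (red, upper point of each row) and wild-type cells (blue, lower point), grouped by subcomplex as in the labels of the level map. Filled points passed an adjusted p of 0.05. Wild-type points lie mostly left of 0 (median -0.30), knockout points mostly right of it (median 0.22).

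In knockout cells, values with starvation lay on both sides, 20 above and 14 below 0. Of the 34 genes, 2 rose and 1 fell, against 18.2% of all genes called (8.44% higher and 9.77% lower), so the share of subunit genes called, 8.82%, lay below that of all genes. The median log2 fold change was 0.22, against 0.00 over all genes. The alpha ring gene Psma6 stood at 155 and 154 CPM in starved knockout cells, against 113 and 108 CPM in rich medium (0.49 ± 0.11, adjusted p = 0.025). The lid gene Psmd8 stood at 184 and 188 CPM in starved cells, against 91.2 and 135 CPM in rich medium (0.71 ± 0.19, adjusted p = 0.0405), with the larger gap to replicate 1. Psma5, also of the alpha ring, fell to 69.1 and 79.7 CPM in starved cells, against 102 and 126 CPM in rich medium (-0.62 ± 0.16, adjusted p = 0.0359). The starved libraries lay above both rich-medium libraries for 15 genes, 44.1%, against 28.7% of all genes, and below both for 3 genes, 8.82%, against 26.6%.

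How far the other subunits moved depended on which knockout rich-medium library was used. Psmb5 stood at 67.7 and 71.7 CPM in starved knockout cells, against 24.6 and 72.5 CPM in rich medium (0.50 ± 0.41, adjusted p = 0.43). With replicate 2 alone as the rich-medium library its log2 fold change was -0.04, and with replicate 1 alone 1.51. Psmb6 stood at 104 and 113 CPM in starved cells, against 47.7 and 97.3 CPM in rich medium (0.57 ± 0.29, adjusted p = 0.213), and gave 0.18 and 1.19 with replicate 2 and replicate 1 alone. Psmb7, at 111 and 105 CPM in starved cells, against 104 and 94.6 CPM in rich medium, lay close together in both replicates (0.13 ± 0.12, adjusted p = 0.499). Psmd4 stood at 225 and 223 CPM in starved cells, against 91.3 and 171 CPM in rich medium (0.77 ± 0.26, adjusted p = 0.0836), and gave 0.41 and 1.30 with replicate 2 and replicate 1 alone. Psmd14 stood at 111 and 109 CPM in starved cells, between the rich-medium values of 149.7 and 101 CPM (-0.18 ± 0.19, adjusted p = 0.527). With replicate 1 left out, 10 genes rose and 3 fell (49.8% of all genes called, 25.4% higher and 24.4% lower) and the median was 0.10, against 0.00 over all genes. With replicate 2 left out, 17 rose and 9 fell (59.1% of all genes called, 32.9% higher and 26.2% lower) and the median was 0.23, against 0.09 over all genes. The 6 genes that rose in both of these fits were Psma6, Psmc2, Psmd4, Psmd5, Psmd8 and Psmd11, the 2 that fell in both were Psma1 and Psma5, and Psma3 and Psmc6 were called in opposite directions. Without any of the 6 other libraries in turn the calls of subunit genes ended, while the median stayed between 0.20 and 0.23. The share of all genes called in those fits is not given here. With all libraries, 8 genes had an unadjusted p under 0.05, against 34.1% of all genes. DESeq2 called 6, against 27.1% of all genes, and limma-voom 0, against 9.5%.

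**Figure D3:**
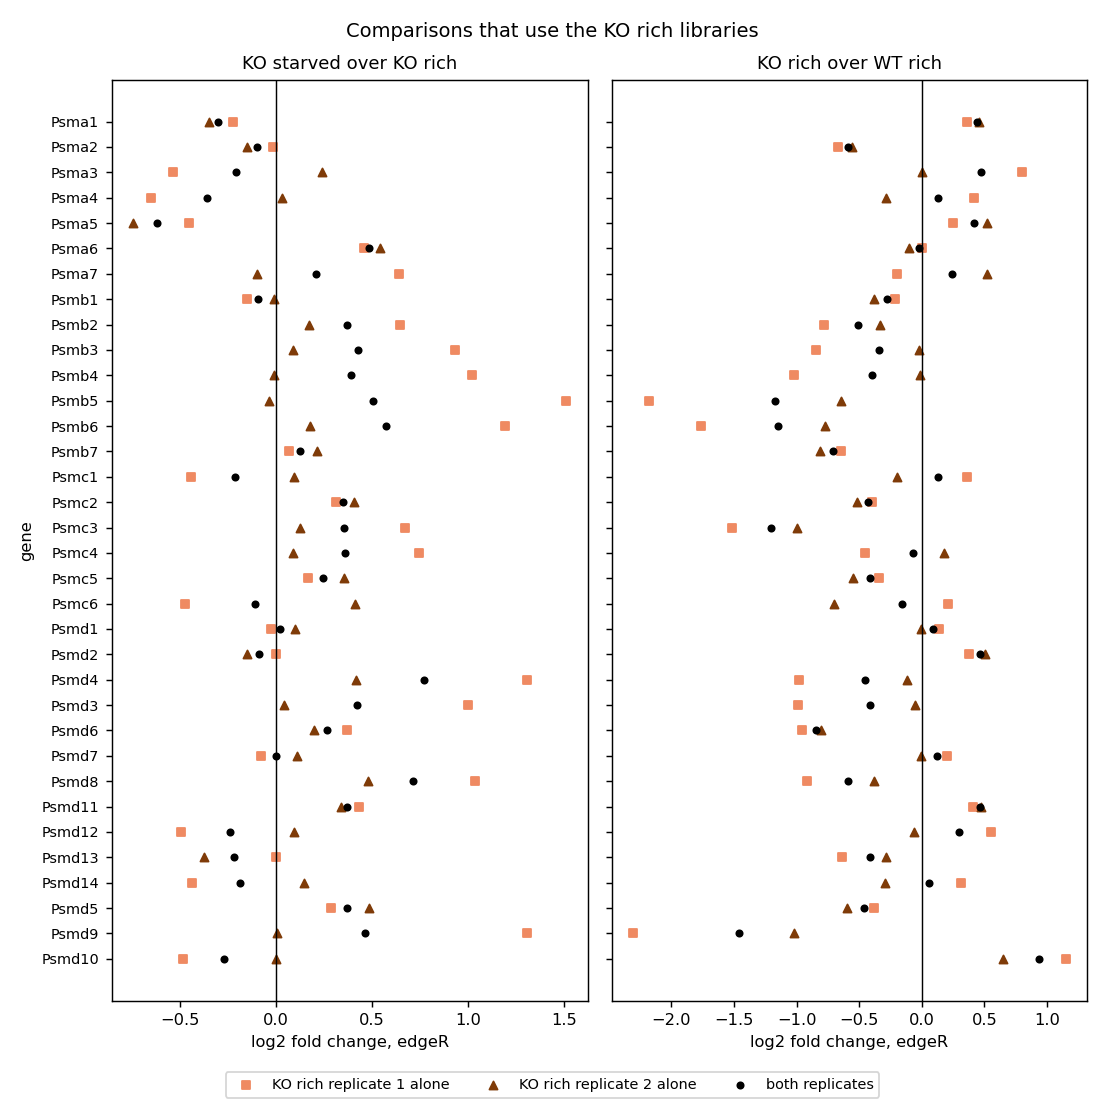
Log2 fold changes of the 34 tested genes in both comparisons that use the knockout rich-medium libraries directly, starved over rich-medium knockout cells (left) and knockout over wild-type cells in rich medium (right), with both replicates (black circles), replicate 1 alone (squares) or replicate 2 alone (triangles). In the left panel Psmb5 gave 1.51 with replicate 1 alone and -0.04 with replicate 2 alone, whereas Psma6, Psmb7, Psmc2 and Psmd11 lay close together.

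The test of the difference itself, the knockout minus the wild-type starvation response, was positive for 26 of 34 genes, with a median of 0.40 against 0.005 over all genes tested (0.34 and 0.59 with replicate 1 or 2 of the knockout rich-medium group left out, where the medians over all genes were 0.02 and 0.18). Of the 34 genes, 15 had a starvation response above 0 in knockout and below 0 in wild-type cells, 11 lay below 0 in both, 5 above 0 in both and 3 below 0 in knockout and above 0 in wild-type cells. The difference passed the test for 3 genes, all positive, which is 8.82% against 13.3% of all genes (7.43% positive and 5.91% negative). They were Psmb7 (0.84 ± 0.17, adjusted p = 0.0206), the alpha ring gene Psma6 (0.80 ± 0.16, adjusted p = 0.0187) and the ATPase gene Psmc2 (0.67 ± 0.16, adjusted p = 0.0383). Psma6 stood at 89.7 and 90.9 CPM in starved wild-type cells, against 112 and 112 CPM in rich medium (-0.31 ± 0.11, adjusted p = 0.0681), the opposite side from the knockout response given above. Psmc2 stood at 165 and 165 CPM in starved and 133 and 126 CPM in rich-medium knockout cells (0.35 ± 0.11, adjusted p = 0.0782), and at 134 and 146 CPM in starved and 175 and 174 CPM in rich-medium wild-type cells (-0.32 ± 0.11, adjusted p = 0.0686). In each of these genes the 2 knockout rich-medium libraries lay close together, with log2 ratios of 0.07 for Psma6, 0.13 for Psmb7 and 0.08 for Psmc2. Without replicate 1, 22 genes had a positive difference that passed and 2 a negative one, with 49.4% of all genes called (26.2% positive and 23.1% negative), and without replicate 2 the counts were 22 and 5, with 56.4% (32.2% positive and 24.2% negative). The positive difference passed in both fits for 16 genes: Psma2, Psma6, Psma7, Psmb5, Psmb7, Psmc2, Psmc3, Psmc4, Psmc5, Psmd1, Psmd2, Psmd3, Psmd6, Psmd7, Psmd8 and Psmd13. Without any other library in turn the calls of subunit genes ended, while the median stayed between 0.36 and 0.43. The share of all genes called in those fits is not given here. The log2 differences of the 3 genes named above stayed between 0.77 and 0.88 for Psma6, 0.79 and 0.96 for Psmb7 and 0.61 and 0.75 for Psmc2 over all libraries left out. With all libraries 8 genes had an unadjusted p under 0.05, against 30% of all genes. DESeq2 called 6, against 21.2% of all genes, and limma-voom 4, against 15.9%.

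**Figure D4:**
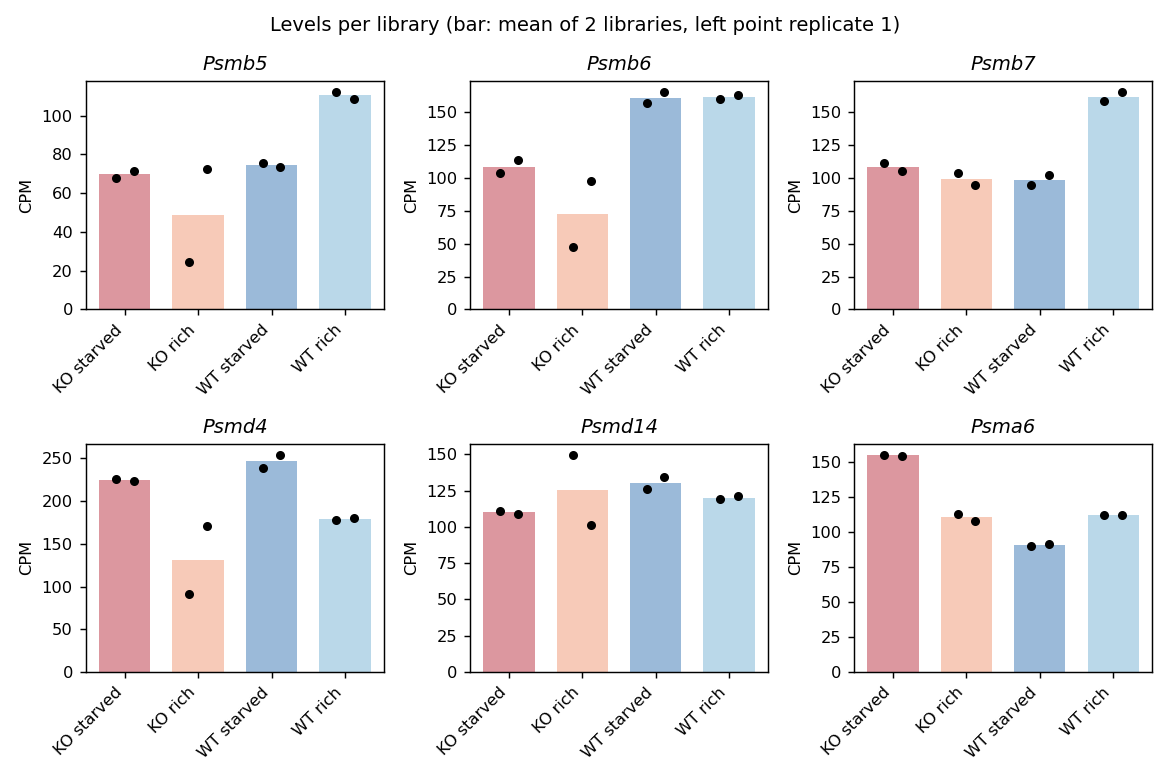
CPM of the 3 active-site subunits (Psmb5, Psmb6, Psmb7), the ubiquitin receptor Psmd4, the deubiquitinase Psmd14 and Psma6 in each library, with a bar at the mean of the 2 libraries of a group and replicate 1 as the left point. Psmb7 is lower in every other group than in wild-type rich-medium cells, Psma6 is highest in starved knockout cells, and the knockout rich-medium points of Psmb5, Psmb6 and Psmd4 lie far apart.

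In rich medium, knockout and wild-type cells differed in single subunits in both directions. Of the 34 genes, 4 were higher and 11 lower in knockout cells, together 44.1%, the same share as the 44.1% of all genes called (23.4% higher and 20.7% lower). The ATPase gene Psmc3 stood at 121 and 177 CPM in knockout cells, against 344 and 343 CPM in wild-type cells (-1.20 ± 0.19, adjusted p = 0.00209). The lid gene Psmd6 stood at 46.0 and 52.4 CPM in knockout cells, against 84.2 and 92.9 CPM in wild-type cells (-0.85 ± 0.13, adjusted p = 0.00226). Psmb7 stood at 104 and 94.6 CPM in knockout cells, against 158 and 165 CPM in wild-type cells (-0.71 ± 0.12, adjusted p = 0.00326). The genotypes did not overlap for these 3 genes, whose calls were kept without any library in turn. Over the 34 genes, knockout libraries lay above wild-type libraries for 8, 23.5%, against 34.1% of all genes, and below them for 15, 44.1%, against 35.8%. All 7 beta ring genes had values below 0, and Psmb2, Psmb6 and Psmb7 passed the test. Psmb6 stood at 47.7 and 97.3 CPM in knockout cells, against 159.9 and 163 CPM in wild-type cells (-1.15 ± 0.29, adjusted p = 0.0172), and at -0.77 on the log2 scale with replicate 2 alone. Psmb5 gave -1.17 ± 0.41, adjusted p = 0.0554, and -0.65 with replicate 2 alone. Psmb3 and Psmb4 gave -0.02 and -0.02 with replicate 2 alone, where they did not pass. Chaperone genes gave the highest and the lowest value of the 34. Psmd10 stood at 51.3 and 37.1 CPM in knockout cells, against 23.8 and 22.2 CPM in wild-type cells (0.93 ± 0.18, adjusted p = 0.00609), and Psmd9 at 9.72 and 24.2 CPM in knockout cells, against 45.2 and 50.2 CPM in wild-type cells (-1.46 ± 0.36, adjusted p = 0.0149). Without replicate 1, 7 genes were higher and 18 lower (65.8% of all genes called, 32.3% higher and 33.6% lower), and without replicate 2 the counts were 12 and 20 (72.7% called, 34.3% higher and 38.4% lower). The direction was called higher in both for Psma1, Psma5, Psmd2, Psmd10 and Psmd11, and lower in both for 14 genes, while 6 genes were called in opposite directions. By DESeq2 there were 18 calls, with relative log expression factors 16, by limma-voom 8 and in a fit of the 4 rich-medium libraries 2. Total counts, either filter, the replicate block and the first listed transcript gave 15. Fewer genes were called without either wild-type rich-medium library or without a starved library. The share of all genes called is not given here for DESeq2 and the settings named after it, so these changes may not be particular to subunit genes. All calls other than those of Psmc3, Psmd6 and Psmb7 ended without some library.

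After starvation, knockout cells had higher levels of more subunits than they had lower ones. Of the 34 genes, 8 were higher and 2 lower in starved knockout than in starved wild-type cells, 29.4% together, against 54.6% of all genes (27.8% higher and 26.8% lower). The median log2 fold change was 0.08, against -0.02 over all genes, and was -0.044 when libraries were scaled by total counts. Knockout libraries lay above wild-type libraries for 16 genes, 47.1%, against 44.1% of all genes, and below them for 12, 35.3%, against 45.5%. Psma6 stood at 155 and 154 CPM in knockout cells, against 89.7 and 90.9 CPM in wild-type cells (0.77 ± 0.11, adjusted p = 0.001). Psmd2 stood at 541 and 522 CPM in knockout cells, against 299.6 and 301 CPM in wild-type cells (0.82 ± 0.12, adjusted p = 0.00104). Psmd1 stood at 348 and 361 CPM in knockout cells, against 229 and 238 CPM in wild-type cells (0.60 ± 0.11, adjusted p = 0.00372). The lid gene Psmd11, whose protein bridges the regulatory and core particles, stood at 214 and 212 CPM in knockout cells, against 145 and 138 CPM in wild-type cells (0.59 ± 0.12, adjusted p = 0.00449). These calls, and that of Psmd10 (0.88 ± 0.18), were kept without any library in turn. Psma1, Psma7 and Psmd7 were also higher, by 0.46 ± 0.12, 0.84 ± 0.23 and 0.54 ± 0.13. Psmb1 (-0.47 ± 0.13) and the chaperone gene Psmd9 (-1.51 ± 0.35) were lower. The calls of these 5 genes ended without at least 3 of the 4 starved libraries in turn, and each of those fits called 5 or 6 genes, with 0 lower in 3 of the 4. The share of all genes called in those fits is not given here, so the loss may not be particular to subunit genes. The active-site genes Psmb5, Psmb6 and Psmb7 gave -0.09 ± 0.41, -0.57 ± 0.29 and 0.14 ± 0.12 and did not pass. The difference between genotypes in this comparison stands beside the marker differences given above, whose part in it was not tested. Leaving out either knockout rich-medium library, which is not part of this comparison, called 16 genes higher and 10 lower, with 80.2% and 80.3% of all genes called (39.6% higher in both, and 40.6% and 40.7% lower).

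The levels of core and regulatory particle genes were also averaged for each library. Over the 14 core and 17 regulatory subunits of somatic proteasomes, the mean log2 level of the core was 6.83 and 6.83 in starved and 6.52 and 6.85 in rich-medium knockout libraries, and 6.66 and 6.77 in starved and 7.0 and 6.96 in rich-medium wild-type libraries. The regulatory mean was 7.48 and 7.46 in starved and 7.24 and 7.32 in rich-medium knockout libraries, and 7.25 and 7.32 in starved and 7.49 and 7.51 in rich-medium wild-type libraries. With starvation of knockout cells the core mean differed by 0.15 and the regulatory mean by 0.19. These values depended on the rich-medium library, with 0.0051 for the core and 0.17 for the regulatory particle when replicate 1 was left out, and 0.32 and 0.24 when replicate 2 was left out. With starvation of wild-type cells the differences were -0.26 and -0.22. The change of the core minus that of the regulatory particle was -0.044 in knockout cells, with a standard deviation between replicates of 0.12, and its sign turned, with -0.16 without replicate 1 and 0.076 without replicate 2 of the rich-medium group. In wild-type cells it was -0.043, with a standard deviation between replicates of 0.0361. In starved cells the core minus regulatory value was -0.65 and -0.63 in knockout libraries, against -0.59 and -0.54 in wild-type libraries, which did not overlap (difference -0.072), with a standard deviation between replicates of 0.0259. For the knockout minus the wild-type response the difference was -8e-04 with all libraries and ranged from -0.12 to 0.12 when a knockout rich-medium library was left out. The 2 replicates of that group, at -0.71 and -0.48, spanned the values of all other libraries. No test was made of these means over subunits.

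**Figure D5:**
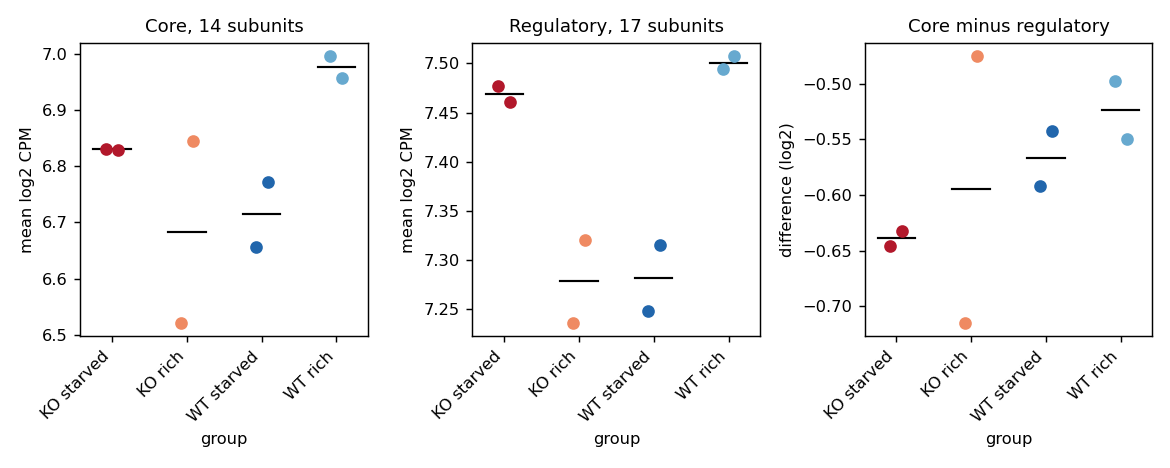
Mean log2 CPM over the 14 core subunits (left) and the 17 regulatory subunits (middle) and their difference (right) in each library, with points for libraries, replicate 1 on the left, and lines for group means. Axes do not start at 0. Both means are highest in wild-type rich-medium cells, and the knockout rich-medium replicates lie furthest apart.

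Genes that assemble, regulate or supply the proteasome were read beside the subunits, from lists chosen for their known roles. Nfe2l1, the regulator of subunit genes, stood at 777 and 809.8 CPM in starved and 317 and 517 CPM in rich-medium knockout cells (0.93 ± 0.22, adjusted p = 0.0286). In wild-type cells it stood at 470.0 and 459.5 CPM after starvation, against 287 and 309 CPM in rich medium (0.64 ± 0.22, adjusted p = 0.0601), without overlap between the groups. Of the 9 genes for NFE2L1, its processing and its partners, 3 rose and 0 fell in starved wild-type cells, beside 14.8% and 18% of all genes: Ngly1, which removes sugar chains from NFE2L1 (0.88 ± 0.17), Ufd1l, which helps to extract it from the endoplasmic reticulum (0.58 ± 0.12), and the partner gene Mafg (0.91 ± 0.22). In starved knockout cells 3 rose and 0 fell, beside 8.44% and 9.77% of all genes, Nfe2l1 and the partner genes Mafk (2.01 ± 0.20) and Maff (1.96 ± 0.26). The responses of the 2 genotypes differed for Mafk (1.70 ± 0.28, adjusted p = 0.0103) and Maff (1.82 ± 0.35, adjusted p = 0.0183), but both calls ended when any 1 of the 6 libraries outside the knockout rich-medium group was left out, with values of 1.51 to 2.04 for Mafk and 1.53 to 2.34 for Maff over all libraries left out. The call of Nfe2l1 in knockout starvation ended in the same way (0.64 to 1.33). In rich medium Mafk stood at 9.47 and 14.1 CPM in knockout and 28.6 and 29.3 CPM in wild-type cells. After starvation it stood at 45.6 and 50.7 CPM in knockout and 36.3 and 35.5 CPM in wild-type cells. Its difference thus took in a lower rich-medium level in knockout cells. Maff stood at 13.4 and 24.1 against 22.5 and 23.2 CPM in rich medium, and at 74.9 and 73.3 against 26.1 and 24.2 CPM after starvation. In knockout starvation the median log2 fold change of the 9 was 0.34 without knockout rich-medium replicate 1 and 0.82 without replicate 2. Over all genes it was 0.00 and 0.09. In wild-type starvation it was 0.29 and 0.31, against -0.0033 and 0.00 over all genes. More genes were called in these fits, on this list as over all genes.

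Of the 5 chaperones of core assembly, Pomp, which drives assembly of the core, fell to 29.9 and 31.9 CPM in starved wild-type cells, against 61.7 and 59.4 CPM in rich medium (-0.97 ± 0.17, adjusted p = 0.00575), and Psmg2 rose (0.54 ± 0.15). Of all genes, 18% were lower and 14.8% higher in that comparison. In knockout starvation 0 of the 5 passed (0 at an unadjusted p under 0.05, and 0 by DESeq2 and limma-voom) and Pomp gave -0.26 ± 0.17. The shares of all genes were 18.2%, 34.1%, 27.1% and 9.5% in the same order. The difference between the genotypes passed for 0 of the 5, Pomp included, beside 13.3% of all genes. At an unadjusted p under 0.05 it was 1 of the 5, beside 30% of all genes. The median log2 fold change of the 5 in knockout starvation was -0.16 without knockout rich-medium replicate 1 and 0.09 without replicate 2. Over all genes it was 0.00 and 0.09. Calls appeared in these fits, where more of all genes were called too. Of the 5 activator and inhibitor genes, the inhibitor gene Psmf1 rose in both genotypes, to 59.8 and 62.3 CPM in starved knockout cells, against 27.3 and 38.5 CPM in rich medium (0.88 ± 0.18, adjusted p = 0.0169), and to 61.8 and 62.8 CPM in starved wild-type cells, against 31.9 and 32.4 CPM in rich medium (0.95 ± 0.18, adjusted p = 0.00698). The activator gene Psme4 fell in both, by log2 values of -0.95 ± 0.18 in knockout and -0.83 ± 0.18 in wild-type cells, and Psme1, an interferon-inducible activator subunit, fell in wild-type cells (-0.79 ± 0.14). In knockout cells Psme1 did not pass, but both starved libraries lay below both rich-medium libraries (21.9 and 19.1 against 27.2 and 30.6 CPM). The difference between the genotypes passed for 0 of the 5 genes, beside 13.3% of all genes. At an unadjusted p under 0.05 it was also 0 of the 5, beside 30% of all genes. Psme1 was also lower in knockout than in wild-type cells, at 27.2 and 30.6 CPM in knockout against 113 and 123 CPM in wild-type cells in rich medium (-2.03 ± 0.14, adjusted p = 6.8e-05), and at 21.9 and 19.1 CPM in knockout against 67.1 and 69.7 CPM in wild-type cells after starvation (-1.74 ± 0.14, adjusted p = 8.0e-05). Among the 3 immunoproteasome genes, which replace the active-site subunits after interferon, Psmb8 had 2 and 0 counts in starved and 0 and 0 in rich-medium knockout libraries, and 139 and 124 in starved and 371 and 449 in rich-medium wild-type libraries. Psmb9 had 0 and 0 counts in starved and 0 and 3 in rich-medium knockout libraries, and 34 and 48 in starved and 59 and 106 in rich-medium wild-type libraries. Psmb10 kept counts in knockout cells, with 266 and 284 in starved and 35 and 269 in rich-medium knockout libraries, and 362 and 567 in starved and 457 and 735 in rich-medium wild-type libraries. The knockout libraries were thus at or near 0 for Psmb8 and Psmb9 but not for Psmb10. Relative to library totals Psmb10 was also lower, at 4.31 to 12.5 CPM in the knockout and 14.4 to 26.2 CPM in the wild-type libraries.

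Of the 7 genes for proteins that associate with the proteasome, 0 passed in either starvation comparison (1 at an unadjusted p under 0.05 and 1 by DESeq2 in each, and 0 in knockout and 3 in wild-type cells by limma-voom). Of all genes, 18.2% passed in knockout and 32.8% in wild-type starvation. At an unadjusted p under 0.05 the shares of all genes were 34.1% and 44.1%, by DESeq2 27.1% and 37.4%, and by limma-voom 9.5% and 67.7%. In knockout starvation the direction turned with the knockout rich-medium library left out. Of the 7, 6 lay above 0 without replicate 1 (median 0.28) and 6 below 0 without replicate 2 (median -0.30). The medians over all genes were 0.00 and 0.09. In wild-type starvation the medians of the 7 were -0.07 and -0.05, against -0.0033 and 0.00 over all genes. Calls appeared in these fits, where more of all genes were called too. Between genotypes 2 were higher and 0 lower in knockout cells in rich medium (beside 23.4% and 20.7% of all genes) and 3 were higher and 0 lower after starvation (beside 27.8% and 26.8%), among them AI314180, the mouse gene of the proteasome adaptor ECM29 (0.99 ± 0.16 in rich medium and 0.78 ± 0.16 after starvation). Of the 5 shuttle receptors that carry ubiquitinated proteins to the proteasome, 0 passed in either starvation comparison (0 in knockout and 2 in wild-type cells at an unadjusted p under 0.05, by DESeq2 and by limma-voom). These counts stand beside the shares of all genes given for the 7 genes above. The median of the 5 receptors in knockout starvation was 0.31 without knockout rich-medium replicate 1 and 0.08 without replicate 2, and in wild-type starvation -0.14 and -0.12. Some receptors were called in these fits, where more of all genes were called too. In rich medium 2 of the 5 were higher and 2 lower in knockout cells, beside 23.4% and 20.7% of all genes. After starvation Rad23b (1.73 ± 0.32) and Ubqln2 (0.45 ± 0.12) were higher, beside 27.8% of all genes. Among the ubiquitin and activating enzyme genes, Rps27a, which encodes ubiquitin fused to a ribosomal protein, rose in starved wild-type cells (0.70 ± 0.13). In knockout starvation Rps27a gave 0.07 ± 0.13 and did not pass, nor did the difference between the genotypes (-0.63 ± 0.18, adjusted p = 0.0622). Of the calls of list genes named here, those kept without any library in turn were Mafk in knockout starvation, Psme1 and AI314180 in both comparisons of genotypes and Rad23b in starved cells. The other calls of named list genes ended without at least 2 libraries in turn, and none turned direction.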

How the data were processed

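The authors deposited read counts per RefSeq transcript, in whole numbers. TopHat2 2.0.9, bedtools and build mm9 are named in the submitters' processing notes. Strand and reads with several matches were handled in a way not given in the sources used here, so reads of processed pseudogenes or overlapping genes could be shared with subunit genes. Columns were matched to samples by name. For each symbol the transcript with most counts was kept. Only Psmd2 and Psmd10 had several rows.

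In R 4.3.3, edgeR 4.0.16 (filterByExpr) left 13882 genes, scaled by trimmed mean of M values. A model of 4 group means was fitted to all 8 libraries (biological coefficient of variation 18.5%), and quasi-likelihood tests gave 5 contrasts, adjusted by Benjamini-Hochberg over all genes tested at 0.05. Standard errors are the log2 fold change divided by the square root of F. Means over particles used log2 CPM with a prior count of 2. The fit was tested on simulated counts drawn with the same spread in every group. That test does not cover the wider spread of the knockout rich-medium pair, and its outcome is not given here. Repeats used relative log expression factors, total counts, other filters, DESeq2 1.42.0, limma-voom (limma 3.58.1) with library quality weights, a replicate block, only the libraries compared, the first listed transcript and 1 library left out. Library totals were 8447014 to 28155431, where 3 counts equal 0.107 to 0.355 CPM, a floor for counting error only. ChIP libraries were not analysed here. The members and lists were chosen with earlier results of these data known. All subunits could be named. Values in every library were given for active-site subunits, Psmd4, Psmd14 and, per contrast, the called members with the smallest p (at most 4); further members were added after their values were seen. List genes named are Nfe2l1, called genes with the smallest p (at most 3 per list and contrast) and, for comparison, their values in other contrasts; some list results are not reported here.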

Additional observations from a re-analysis of the deposited data

Results flagged for a closer look

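For 3 subunit genes the starvation responses of the genotypes differed by the test of the difference itself (edgeR quasi-likelihood test, knockout minus wild-type log2 fold change). The difference was 0.84 ± 0.17 for Psmb7, 0.80 ± 0.16 for Psma6 and 0.67 ± 0.16 for Psmc2. Each of the 3 calls was lost when any 1 of the 6 libraries outside the knockout rich-medium group was left out, and kept when either library of that group was left out. Over all libraries left out the differences ranged from 0.79 to 0.96 for Psmb7, from 0.77 to 0.88 for Psma6 and from 0.61 to 0.75 for Psmc2.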

How the results depend on the processing

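Leaving out 1 library at a time moved the counts of called subunit genes most: from 0 to 27 in wild-type starvation, from 0 to 26 in knockout starvation, from 3 to 32 between genotypes in rich medium, from 5 to 26 between starved genotypes and from 0 to 27 for the difference between responses. The highest values came from leaving out a knockout rich-medium library, after which the spread was estimated from the closer pairs. The medians ranged from -0.33 to -0.24, 0.10 to 0.23, -0.38 to -0.24, 0.032 to 0.13 and 0.34 to 0.59 in the same order, and core minus regulatory values from -0.07 to -0.02, -0.16 to 0.08, -0.19 to 0.05, -0.10 to -0.05 and -0.12 to 0.12. Of 37 calls over the 5 comparisons, 8 were kept without any library in turn. The share of all genes called is given above only for the fits without a knockout rich-medium library. Losses in the other fits may therefore not be particular to subunit genes.

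Among genes that did not pass with all libraries, a call in the other direction appeared without 1 knockout rich-medium library, and the log2 fold changes over the libraries left out then ranged as follows. In knockout starvation they ran from -0.53 to 0.24 for Psma3 and from -0.47 to 0.41 for Psmc6. Between genotypes in rich medium they ran from -0.29 to 0.42 for Psma4, -0.20 to 0.52 for Psma7, -0.20 to 0.36 for Psmc1, -0.46 to 0.17 for Psmc4, -0.70 to 0.21 for Psmc6 and -0.29 to 0.31 for Psmd14. For the difference between responses they ran from -0.36 to 0.44 for Psma3, -0.35 to 0.35 for Psma4, -0.47 to 0.44 for Psmc6 and -0.48 to 0.80 for Psmd9.

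DESeq2 called 13 subunit genes in wild-type starvation, 6 in knockout starvation, 18 between genotypes in rich medium, 10 between starved genotypes and 6 for the difference between responses. Limma-voom with library quality weights called 23, 0, 8 and 22 in the 4 comparisons of groups, in the order above. For DESeq2 and limma-voom the share of all genes called in the comparisons of genotypes is not given here, so those counts may not be particular to subunit genes. A fit of only the libraries compared called 26, 0, 2 and 25, and its share of all genes called is not given here. With total counts the median after starvation, knockout against wild type, was -0.044 in place of 0.08, so its sign depends on the scaling. The cause was not tested. The replicate block called 5, 3, 15, 10 and 2 genes, in place of 6, 3, 15, 10 and 3. Same-numbered libraries did not deviate together (correlations from -0.0255 to 0.0631 over 6 pairs of groups). With 2 libraries per group this cannot show whether they came from the same line, embryo or day, so pairing remains unknown. Relative log expression factors, both filters and the first listed transcript left all counts within 1.5 times and all medians within the replicate spread. Settings for single genes and lists were applied after seeing the data.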
